A study of Rattus norvegicus with 24 samples.

Results

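Water and urea leave the tubule fluid of the kidney inner medulla through a small set of membrane proteins. Genes of this set, related channels and transporters, and vasopressin receptors, 10 genes in all, were followed in rats on low salt or given aldosterone. They were taken by symbol from the 36856 genes of each table: 6 water channels (Aqp1, Aqp2, Aqp3, Aqp4, Aqp7 and Aqp11), 2 urea transporters (Slc14a1 and Slc14a2) and 2 vasopressin receptors (Avpr1a and Avpr2). RNA sequencing covered 24 libraries, 16 from the papilla (inner medulla) of one kidney and 8 from a piece of heart ventricle, with 4 Sprague-Dawley rats in each of 6 groups. One kidney group received aldosterone at 12 µg per day from an osmotic minipump on a 0.4% Na diet, and its controls ate the same diet. In a separate experiment, kidney and heart came from rats on low salt, with 0.01 to 0.02% Na in the diet, or on high salt, with 0.4% Na. The 0.4% diet is called a control diet in the protocol. Diets lasted 7 days, and the labels give female rats of 120 to 200 g.

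Vasopressin binds the V2 receptor (Avpr2) on collecting duct principal cells, which raises cAMP and, through protein kinase A, moves Aqp2 water channels into the apical membrane. Water then leaves the cell through Aqp3 and Aqp4 in the basolateral membrane. The same hormone raises urea permeability through the Slc14a2 transporters of the inner medullary collecting duct, while Slc14a1 carries urea across descending vasa recta and red cells. Aqp1 is the constitutive channel of the descending thin limb, the proximal tubule and the descending vasa recta. Aqp7 passes glycerol as well as water and lies in the proximal straight tubule, adipocytes and heart muscle, Aqp11 is an intracellular channel of proximal tubule cells, and the V1a receptor Avpr1a signals through calcium.

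Library totals ran from 24299000 to 38319000 counts. Levels are given as CPM at the TMM-scaled library size, and per-library values are given for replicates 1, 2, 3 and 4, where 1 and 2 belong to batch 1 and 3 and 4 to batch 2. The summed level of 8 collecting duct markers was 5788 to 8109 CPM in kidney libraries and 25.2 to 60.1 CPM in heart libraries. Most of the heart sum was 1 gene, St6gal1. It averaged 24.4 of 29.8 CPM in heart on low salt and 26.4 of 36.9 CPM on high salt. The summed level of 8 cardiomyocyte markers was 1.19 to 5.39 CPM in kidney and 68499 to 86008 CPM in heart. Kidney libraries also held markers of the thick ascending limb, at a sum of 1330 to 5858 CPM for 6 genes, and of the proximal tubule, at 83.5 to 630 CPM for 10 genes. Heart high salt replicate 2 stood apart, with 117.5 CPM of thick ascending limb markers against 1.07 to 11.5 CPM in the 7 other heart libraries. Some heart comparisons are therefore also given without this library, where stated, and the others include it. Proximal tubule markers set all batch 1 hearts apart, at 27.4 and 107 CPM on low salt and 29.6 and 50.7 CPM on high salt. Batch 2 hearts had 0.570 to 1.12 CPM, so leaving out 1 library does not remove these markers from heart. The female marker Xist ranged over 239 to 454 CPM in all 8 aldosterone and control libraries, and did not exceed 0.0913 CPM in the remaining 16, whose Y-linked genes summed to 144 to 275 CPM against the female label. Each comparison within a table therefore sets libraries of 1 pattern against each other.

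Slc14a2, which carries urea out of the inner medullary collecting duct, was lower on low salt, and no other of the 10 genes passed the test. Slc14a2 stood at 891, 1020, 1142 and 1244 CPM on low salt, against 1524, 1788, 1819 and 2437 CPM on high salt. Every low-salt library lay below every high-salt library. The mean was 1074 ± 153 CPM on low salt, against 1892 ± 387 CPM on high salt (SD, n = 4 each), a log2 fold change of -0.81 ± 0.12 (SE) with an adjusted p of 0.0207 (edgeR quasi-likelihood test, Benjamini-Hochberg over 18449 genes). Of all genes tested, 2.46% were called and 1.37% were called lower. Groups without overlap occurred in 11.4% of genes, and in 6.62% with low salt below. The log2 change was -0.79 within batch 1 and -0.83 within batch 2, where the adjusted p was 0.204 and 0.108 with 2 libraries a group. The call was lost without high salt replicate 2 (adjusted p = 0.0730), low salt replicate 3 (0.0678) or low salt replicate 4 (0.0606), and without the batch term (0.0524), while the log2 change stayed between -0.89 and -0.72 over the fits that left out 1 library. With all libraries and the batch term, 454 of 18449 genes were called. Calls over all genes fell to 24, 2 and 84 without these libraries in turn, and to 165 without the batch term. The other fits that left out 1 library called 38 to 423 genes. Fits of batch 1 and batch 2 alone called 0 and 240 genes.

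**Figure D1:**
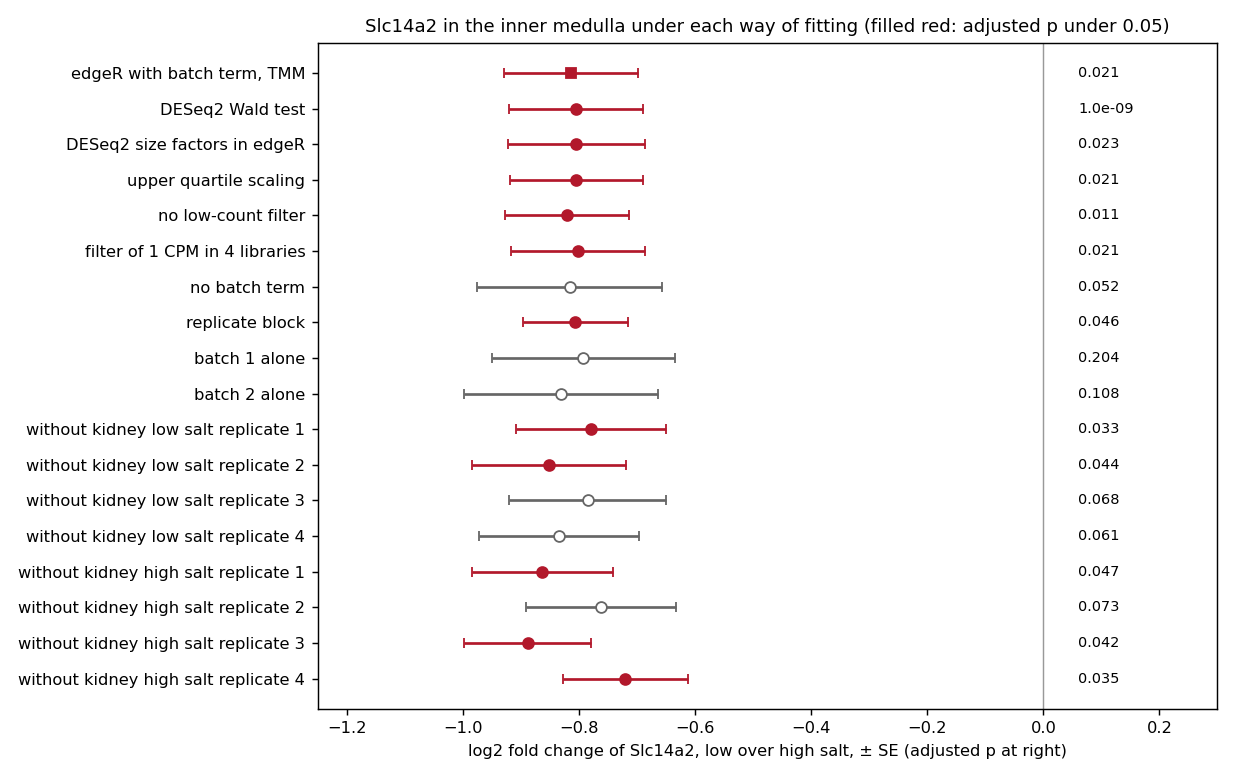
Log2 fold change of Slc14a2, low over high salt in the inner medulla, with its standard error under each way of fitting (4 libraries a group, fewer where one is left out or 1 batch is fitted). Red filled points have an adjusted p under 0.05, printed at the right, and every estimate lies between -0.89 and -0.72.

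The rat Slc14a2 gene has an upstream promoter and an internal one, which is known to start the shorter transcript of the descending thin limb, and the counts per gene pool both. The RefSeq table of the GRCr8 build lists 2 starts for it, each shown here from 250 bases before to 50 bases after the start, because this is the gene whose level changed. The upstream one lies at chr18:74314497-74314796 on the minus strand, with the letters AGAACA, a half-site of the corticosteroid receptor element, in capitals. The downstream one lies at chr18:73921535-73921834 on the minus strand.
Slc14a2 upstream start: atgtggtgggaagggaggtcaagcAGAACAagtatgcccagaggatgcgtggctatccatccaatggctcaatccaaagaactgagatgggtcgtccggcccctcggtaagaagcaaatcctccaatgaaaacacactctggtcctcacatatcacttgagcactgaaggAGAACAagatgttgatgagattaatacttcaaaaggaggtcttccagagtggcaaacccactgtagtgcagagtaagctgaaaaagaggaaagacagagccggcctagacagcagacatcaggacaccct
Slc14a2 downstream start: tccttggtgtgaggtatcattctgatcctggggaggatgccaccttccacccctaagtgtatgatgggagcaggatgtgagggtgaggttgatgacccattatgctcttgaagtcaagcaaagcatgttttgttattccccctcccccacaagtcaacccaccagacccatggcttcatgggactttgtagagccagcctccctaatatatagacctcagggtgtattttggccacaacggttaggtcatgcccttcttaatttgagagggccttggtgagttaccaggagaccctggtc
AGAACA, searched on both strands, occurred at 2 places in the upstream window and at none in the downstream window, and 20.7% of 33469 RefSeq promoters of this length hold it. Of 11 windows listed for 9 of the 10 genes, 3 hold it. Slc14a1 is the direct neighbour of Slc14a2 on chromosome 18, with no annotated gene between them.

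Slc14a1, the urea transporter of vasa recta and red cells, gave 97.0, 137, 149 and 110 CPM on low salt, against 230, 149, 170 and 164 CPM on high salt. The ranges met at one point, where the highest low-salt library (replicate 3) lay just above the lowest high-salt library (replicate 2). The log2 fold change of -0.53 ± 0.18 did not pass (adjusted p = 0.146, edgeR), and it was -0.69 in batch 1 and -0.36 in batch 2. DESeq2, which called 9.19% of all genes here and 4.73% lower, gave an adjusted p of 0.0334. The markers of the cells that carry Slc14a1 overlapped between the diets: endothelial markers summed to 546 to 837 CPM on low salt, against 776 to 1039 CPM on high salt, and erythroid markers to 3046 to 6830 CPM on low salt, against 1239 to 5069 CPM on high salt. In tissue RNA, fewer cells of a type and less RNA per cell cannot be told apart.

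The water channels of the collecting duct did not pass the test. Aqp2, the vasopressin-regulated apical channel, had 6144, 4214, 5716 and 5590 CPM on low salt and 5764, 6713, 7198 and 6912 CPM on high salt. Low salt replicate 1 lay above high salt replicate 1, and the 3 other low-salt libraries were below all 4 high-salt libraries. The log2 fold change was -0.29 ± 0.13 with an adjusted p of 0.276, and it was -0.27 and -0.32 in batches 1 and 2.

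The basolateral exit channels had positive estimates instead. Aqp3 had 3105, 1940, 2585 and 2217 CPM on low salt, against 1901, 2261, 1936 and 2598 CPM on high salt (log2 0.18 ± 0.17, adjusted p = 0.601, edgeR). Aqp4 had 1653, 1430, 1922 and 1626 CPM on low salt, against 1170, 1754, 1171 and 1243 CPM on high salt (log2 0.32 ± 0.16, adjusted p = 0.315, edgeR). For Aqp4, high salt replicate 2 lay within the low-salt range and the 3 other high-salt libraries lay below it. The Aqp4 difference was 0.08 in batch 1 and 0.56 in batch 2 on the log2 scale.

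The Aqp2 window is printed because the channel is the main target of the vasopressin signal; it lies at chr7:132590036-132590335 on the plus strand of GRCr8. Capitals mark 1 AGAACA half-site and TGACG, the core of the cAMP response element. TGACG lies on the minus strand here, so it appears as CGTCA in the printed plus strand.
Aqp2 start: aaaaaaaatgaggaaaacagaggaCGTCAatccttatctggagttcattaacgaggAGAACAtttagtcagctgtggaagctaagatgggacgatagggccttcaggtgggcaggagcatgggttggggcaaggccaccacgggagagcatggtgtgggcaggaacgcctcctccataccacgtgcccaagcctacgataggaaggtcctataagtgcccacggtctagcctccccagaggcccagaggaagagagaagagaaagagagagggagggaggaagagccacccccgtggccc
The letters TGACG, on either strand, occurred in 2 of the 11 windows, those of Aqp2 and Avpr1a, and in 21.2% of all promoters. Neither motif overlapped the other in the Aqp2 window, and a match of letters is no measure of binding.

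Aqp1, the channel of the descending thin limb, had 1029, 1142, 830 and 1355 CPM on low salt, against 1468, 1420, 1552 and 989 CPM on high salt. The groups overlapped through high salt replicate 4, which lay below 3 low-salt libraries, with a log2 fold change of -0.31 ± 0.18 (adjusted p = 0.387, edgeR). The 8 thin limb markers summed to 757 to 997 CPM on low salt, against 1091 to 1407 CPM on high salt, without overlap, and 1 of them passed the test, Slc4a11. Their part in the Slc14a2 and Aqp1 values was not tested.

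The 2 receptors did not pass either. Avpr2, the V2 receptor, had 369, 276, 411 and 400 CPM on low salt, against 330, 358, 424 and 443 CPM on high salt (log2 -0.10 ± 0.09, adjusted p = 0.616, edgeR). Avpr1a, the V1a receptor, had 10.9, 11.1, 6.10 and 8.61 CPM on low salt, against 13.6, 9.70, 13.0 and 10.8 CPM on high salt (log2 -0.39 ± 0.19, adjusted p = 0.309, edgeR). The diets overlapped for both, and for Avpr1a low salt replicates 3 and 4 were below all high-salt libraries.

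Aqp7 and Aqp11, the channels of the proximal tubule, were low and varied most. Aqp7 had 0.976, 8.89, 7.01 and 4.93 CPM on low salt, against 4.83, 5.82, 0.829 and 1.07 CPM on high salt. Its log2 fold change of 1.19 ± 0.77 did not pass (adjusted p = 0.436, edgeR) and differed in sign between batches, at -0.11 in batch 1 and 2.65 in batch 2, where the adjusted p was 0.0317. Batch 2 alone called 240 of 18545 genes, 204 of them higher, and batch 1 alone called 0 of 18903. Aqp11 had 0.762, 3.48, 1.64 and 1.25 CPM on low salt, against 1.77, 2.99, 0.740 and 1.16 CPM on high salt (log2 0.19 ± 0.46, adjusted p = 0.856, edgeR). Over the 16 kidney libraries the counts were 18 to 279 for Aqp7 and 16 to 114 for Aqp11, so counting error adds to their spread.

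**Figure D2:**
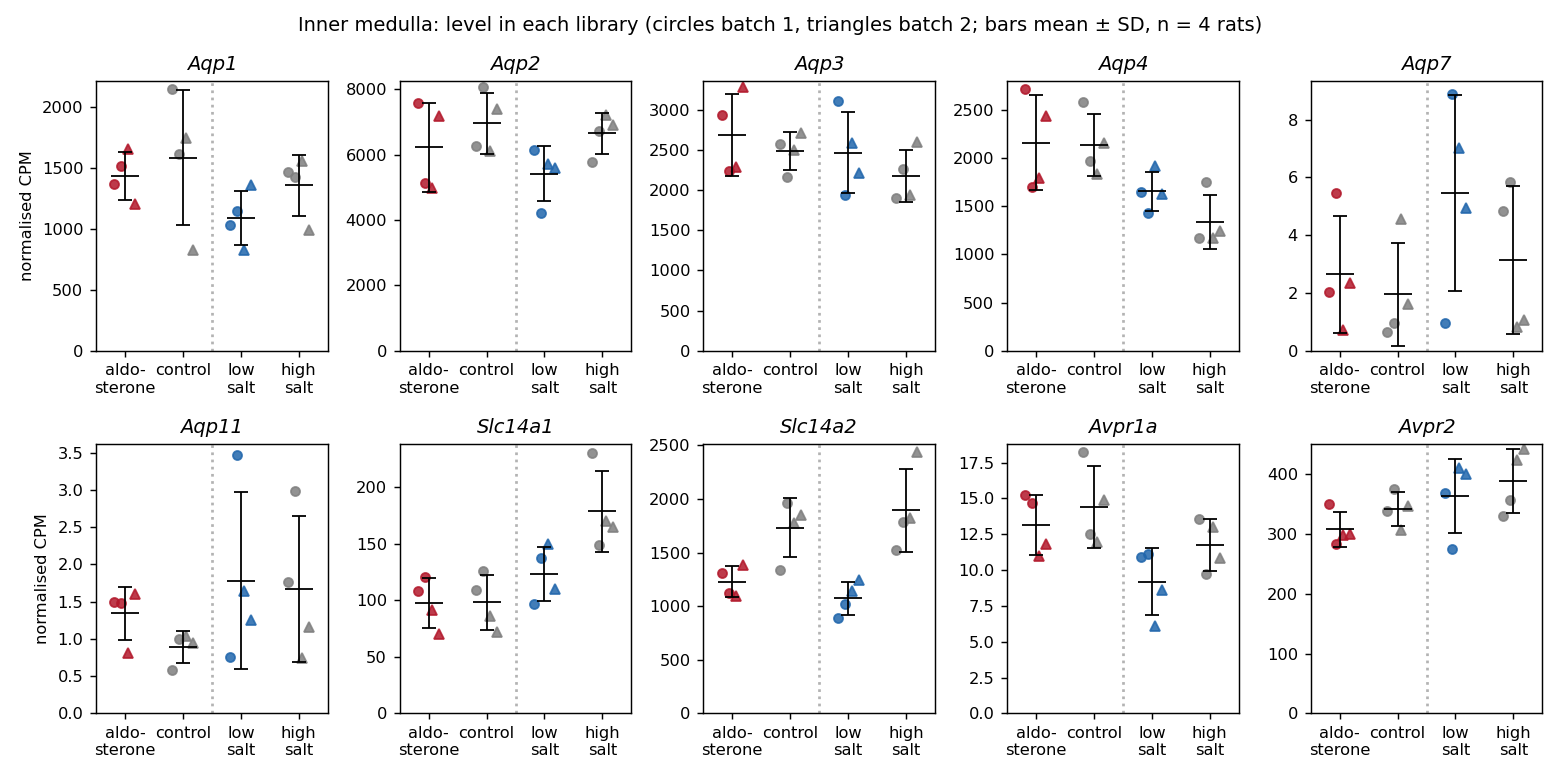
Normalised CPM of each gene in the 16 inner medulla libraries, by group; circles are batch 1, triangles batch 2, and bars give the mean ± SD of 4 rats. The dotted line separates the 2 experiments, and Slc14a2 is the gene whose low-salt values (891 to 1244 CPM) all lie below its high-salt values (1524 to 2437 CPM).

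Of 21 cAMP signalling genes around the V2 receptor, none rose and 2 fell on low salt, where 1.37% of all genes tested were called lower and 1.09% higher, with a median log2 change of -0.036 beside -0.0035 over all genes tested. Adcy3, an adenylyl cyclase that makes cAMP, had 19.2 to 58.2 CPM on low salt, against 111 to 171 CPM on high salt (log2 -1.94 ± 0.27, adjusted p = 0.0201, edgeR). Prkar2b, a regulatory subunit of protein kinase A, averaged 50.4 ± 10.9 CPM on low salt, against 94.1 ± 9.17 CPM on high salt (SD, n = 4; log2 -0.92 ± 0.14, adjusted p = 0.0268, edgeR). The Adcy3 call was lost without high salt replicates 1, 2 or 3 or low salt replicate 3, at adjusted p-values of 0.0533 to 0.0695. The Prkar2b call was lost when any library but low salt replicate 1 or high salt replicate 4 was left out, at 0.0540 to 0.0849. With the replicate number as a block the adjusted p was 0.0557 for Adcy3 and 0.0639 for Prkar2b. That block called 52 genes in all, where the batch term called 454. Calls over all genes also fell in each fit that left out 1 library.

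Of 13 collecting duct transcription factors, 2 rose and none fell, beside 1.09% of all genes called higher and 1.37% called lower, with a median of 0.19. Nfat5, the tonicity-responsive factor that drives osmolyte genes, averaged 735 ± 34.96 CPM on low salt, against 481 ± 35.05 CPM on high salt (log2 0.61 ± 0.08, adjusted p = 0.0177, edgeR). Grhl2, an epithelial barrier factor, averaged 92.4 ± 8.97 CPM on low salt, against 66.6 ± 6.20 CPM on high salt (log2 0.47 ± 0.08, adjusted p = 0.0378, edgeR). The Nfat5 call was lost without high salt replicates 2 or 3 or low salt replicate 3, at 0.0596 to 0.0628, and the Grhl2 call without any 1 of the 8 libraries, at 0.0521 to 0.0990. The replicate block gave adjusted p-values of 0.0560 for Nfat5 and 0.0863 for Grhl2. In these fits too, fewer genes were called over the whole set than the 454 with all libraries and the batch term.

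Of 27 genes of water channel trafficking and phosphorylation, none passed, 12 had positive and 15 negative changes, 8 had an unadjusted p under 0.05, as did 19.6% of all genes, and the median was -0.0074. The smallest p-values belonged to Nedd4l, a ubiquitin ligase (log2 0.49 ± 0.11, adjusted p = 0.0608, edgeR), and Stx4, a membrane fusion protein (log2 -0.23 ± 0.07, adjusted p = 0.110). Without high salt replicate 4 Nedd4l passed at 0.0284. Of the other aquaporins, 3 were tested and none passed: Aqp6, the intracellular channel of intercalated cells, averaged 335 ± 123 CPM on low salt, against 252 ± 46.3 CPM on high salt (adjusted p = 0.429, edgeR), and Aqp5 averaged 0.783 ± 0.291 CPM on low salt, against 0.630 ± 0.235 CPM on high salt (adjusted p = 0.656, edgeR). Of 3 vasopressin and oxytocin family genes tested none passed, among them Lnpep, the aminopeptidase that degrades vasopressin (log2 -0.04 ± 0.06, adjusted p = 0.737), and the oxytocin receptor Oxtr (0.11 ± 0.26, adjusted p = 0.850).

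Markers of cells that carry the 10 genes gave 1 call among 8 for the collecting duct, where Tmem45b was higher (log2 0.52 ± 0.10, adjusted p = 0.0402, edgeR). Over all genes tested, 1.09% were called higher and 1.37% lower. The collecting duct sum was 6466 to 8109 CPM on low salt, against 6531 to 6958 CPM on high salt. Among 8 thin limb markers 1 was lower, Slc4a11, a membrane transporter (log2 -0.88 ± 0.16, adjusted p = 0.0388). All 8 had negative changes with a median of -0.28, where 49.3% of all genes had positive changes. One of 11 endothelial markers was lower, the sialomucin Emcn (log2 -0.75 ± 0.12, adjusted p = 0.0319). These calls were lost without high salt replicates 1, 2 or 3 or low salt replicate 3, at 0.0628 to 0.116. Tmem45b and Slc4a11 were also lost without low salt replicate 4 (0.0843 and 0.0775), Tmem45b without high salt replicate 4 (0.0622), and Emcn without low salt replicate 2 (0.0566). Each of these fits called fewer genes over the whole set than the 454 with all libraries and the batch term.

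Aldosterone infusion changed none of the 10 genes past the threshold in edgeR, with 1 at an unadjusted p under 0.05 and 1 called by DESeq2. In the 17671 genes tested, edgeR called 0%, 9.9% had an unadjusted p under 0.05 and DESeq2 called 2.11%. All 10 genes overlapped between the groups, and 5.09% of genes did not. Slc14a2 was again the member with the smallest p. It had 1310, 1125, 1096 and 1387 CPM with aldosterone, against 1335, 1965, 1771 and 1852 CPM in controls. The groups overlapped through control replicate 1, which lay within the aldosterone range, and the 3 other controls lay above it. The mean was 1230 ± 141 CPM with aldosterone, against 1731 ± 275 CPM in controls (SD, n = 4 each), a log2 fold change of -0.49 ± 0.14 (adjusted p = 0.319, edgeR). The change was -0.43 in batch 1 and -0.54 in batch 2. DESeq2 gave an adjusted p of 0.0316, and called 0.407% of all genes lower.

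The other urea transporter did not pass: Slc14a1 had 108, 120, 91.4 and 70.0 CPM with aldosterone, against 109, 126, 86.2 and 71.5 CPM in controls. Within each batch the libraries of both groups lay side by side, batch 1 above batch 2. The log2 fold change was -0.0014 ± 0.11 (adjusted p = 0.998, edgeR).

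Aqp2 had 7590, 5141, 4973 and 7165 CPM with aldosterone, against 6272, 8055, 6102 and 7394 CPM in controls (log2 -0.16 ± 0.18, adjusted p = 0.802, edgeR). Replicates 2 and 3 with aldosterone lay below all controls and replicates 1 and 4 among them. Aqp3 had 2937, 2236, 2280 and 3283 CPM with aldosterone, against 2576, 2156, 2497 and 2710 CPM in controls (log2 0.11 ± 0.15, adjusted p = 0.832, edgeR). Aqp4 had 2718, 1704, 1794 and 2434 CPM with aldosterone, against 2582, 1966, 1834 and 2162 CPM in controls (log2 0.02 ± 0.18, adjusted p = 0.979, edgeR). In all 3 channels of the principal cell, aldosterone replicates 1 and 4 were the higher pair and replicates 2 and 3 the lower pair.

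Aqp1 had 1368, 1518, 1655 and 1200 CPM with aldosterone, against 2145, 1610, 1746 and 827 CPM in controls (log2 -0.11 ± 0.25, adjusted p = 0.905, edgeR). The controls held both the highest and the lowest library. Avpr2 had 351, 283, 298 and 300.2 CPM with aldosterone, against 339, 376, 307 and 347 CPM in controls (log2 -0.15 ± 0.09, adjusted p = 0.619, edgeR). Avpr1a had 15.2, 14.7, 10.96 and 11.8 CPM with aldosterone, against 18.2, 12.5, 12.0 and 14.9 CPM in controls (log2 -0.14 ± 0.15, adjusted p = 0.787, edgeR). Both receptors overlapped between the groups.

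Aqp7 had 2.02, 5.46, 0.711 and 2.36 CPM with aldosterone, against 0.656, 0.970, 4.55 and 1.62 CPM in controls. The highest library of each group came from a different batch, and the log2 fold change of 0.55 ± 0.82 (adjusted p = 0.854, edgeR) was 2.20 in batch 1 and -1.02 in batch 2. Aqp11 had 1.49, 1.48, 0.808 and 1.60 CPM with aldosterone, against 0.583, 1.00, 1.04 and 0.942 CPM in controls. Aldosterone replicate 3 lay within the control range and the other 3 above it (log2 0.58 ± 0.31, adjusted p = 0.592, edgeR).

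**Figure D3:**
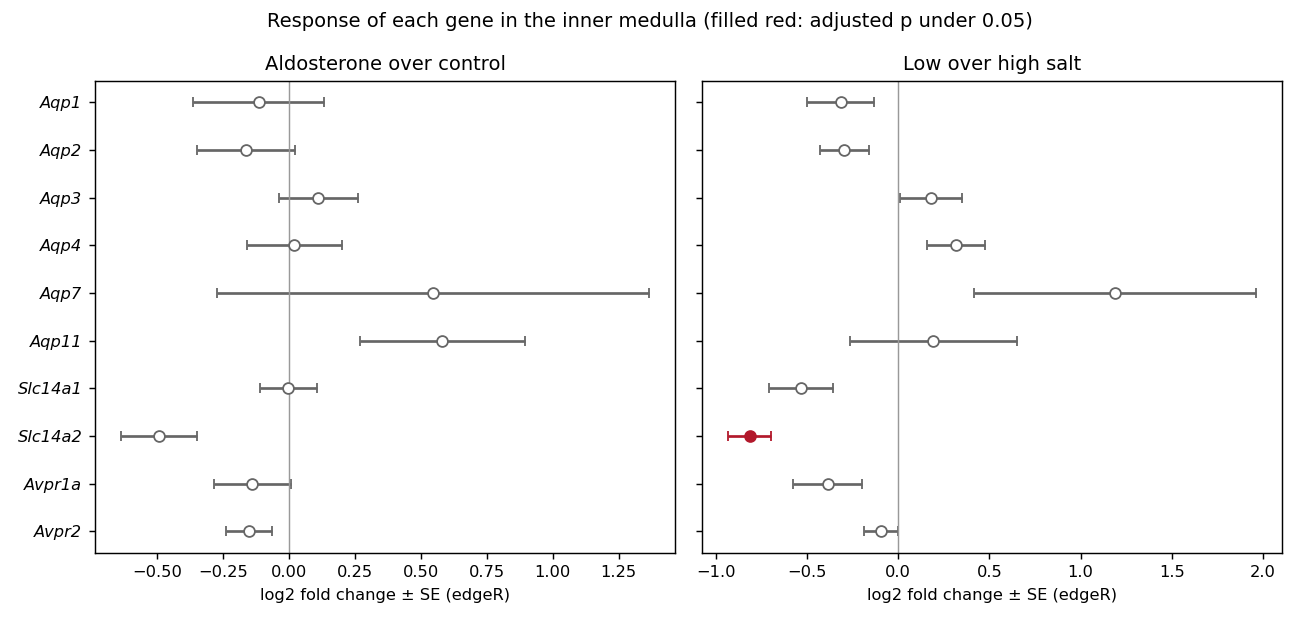
Log2 fold change with its standard error for each gene in the inner medulla, aldosterone over control at the left and low over high salt at the right (4 rats a group, edgeR). Slc14a2 on low salt, at -0.81, is the point with an adjusted p under 0.05, and its aldosterone estimate is -0.49.

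None of the genes around the receptor passed with aldosterone: 0 of 21 for cAMP signalling (1 with an unadjusted p under 0.05), 0 of 27 for trafficking (1), 0 of 13 transcription factors (2) and 0 of 8 collecting duct markers (1). The medians were -0.041, 0.0066, -0.099 and -0.12 on the log2 scale, beside 0.0041 over all genes. The smallest p-values belonged to Elf5, an epithelial factor of the collecting duct (log2 -0.39 ± 0.12, adjusted p = 0.365, edgeR), and Gata3 (-0.45 ± 0.19, adjusted p = 0.496) among the transcription factors. In the cAMP list they belonged to the factor Atf1 (0.16 ± 0.06, adjusted p = 0.461) and Prkar2b (-0.35 ± 0.16, adjusted p = 0.517), and in the trafficking list to the myosin light chain Myl9 (0.77 ± 0.28, adjusted p = 0.426) and the fusion protein Stx3 (-0.16 ± 0.08, adjusted p = 0.577). Lnpep (-0.20 ± 0.07, adjusted p = 0.427), Oxtr (-0.23 ± 0.47, adjusted p = 0.895), Aqp5 (0.38 ± 0.41, adjusted p = 0.790) and Aqp6 (0.17 ± 0.21, adjusted p = 0.821) did not pass. Thick ascending limb markers summed to 2720 to 5858 CPM with aldosterone and 1330 to 3218 CPM in controls. Erythroid markers summed to 3627 to 5186 CPM with aldosterone and 2118 to 2849 CPM in controls, without overlap, and 9 of 11 had an unadjusted p under 0.05 with none called. That sum includes Slc4a1, which is also on the intercalated cell list. Slc4a1 averaged 1454 CPM with aldosterone and 1103 CPM in controls. Fibroblast and interstitial markers summed to 136 to 413 CPM with aldosterone and 99.6 to 305 CPM in controls, with 4 of 6 at an unadjusted p under 0.05 and none called. The part of these markers in the values of the 10 genes, among them the red cell transporter Slc14a1, was not tested.

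The responses to low salt and to aldosterone were set against each other directly. Of the 10 genes none differed past the threshold in edgeR or DESeq2, which called 0.0528% and 3.47% of 18938 genes, and 1 (Slc14a1) had an unadjusted p under 0.05, as did 13.1% of genes. The low-salt response minus the aldosterone response was -0.30 ± 0.19 for Slc14a2 (adjusted p = 0.527, edgeR interaction) and -0.51 ± 0.22 for Slc14a1 (adjusted p = 0.340). Both are differences of log2 fold changes, and this comparison sets libraries with Xist against libraries with Y-linked transcripts, which cannot be told apart from the experiment.

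The aldosterone controls and the high-salt rats ate the same Na content in different experiments, scaled in separate tables. The aldosterone experiment has libraries with Xist and the low-salt experiment libraries with Y-linked transcripts. That difference cannot be told apart from the experiment in the values below. Aqp4 was higher in those controls (1834 to 2582 CPM) than on high salt (1170 to 1754 CPM), without overlap. Slc14a1 was lower in the controls (71.5 to 126 CPM) than on high salt (149 to 230 CPM). The other 8 genes overlapped, and groups without overlap occurred in 15% of 17491 genes. Ordered by mean, Slc14a2 ran from high salt (1892 CPM) through aldosterone controls (1731 CPM) and aldosterone (1230 CPM) to low salt (1074 CPM), and each neighbour in that order overlapped with the next. Avpr2 ran in another order, with high salt first (389 CPM) and aldosterone last (308 CPM), again with overlap between neighbours.

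Aqp7 and Aqp11 varied between kidney libraries together with proximal tubule markers. Over the 16 kidney libraries, with the mean of each table and batch removed from log2 values (0.1 CPM added), Aqp7 and the summed level of 10 proximal tubule markers had a Pearson r of 0.967 and a Spearman rho of 0.968. Both had a permutation p of 2e-05 (two-sided, 100000 shuffles within table and batch; adjusted p = 0.00026 over 13 relations). The r was 0.958 without the 2 libraries farthest from the median, 0.973 in the aldosterone table and 0.985 in the low-salt table. Aqp11 gave r = 0.840 and rho = 0.800 (permutation p of 8e-05 and 0.0003, adjusted 0.00052 and 0.0019), and 0.799 without those 2 libraries. Proximal tubule markers summed to 145 to 630 CPM on low salt, against 83.5 to 465 CPM on high salt, and to 96.9 to 252 CPM with aldosterone and 95.9 to 224 CPM in controls. The 13 pairs of gene and marker list were chosen after values had been seen.

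**Figure D4:**
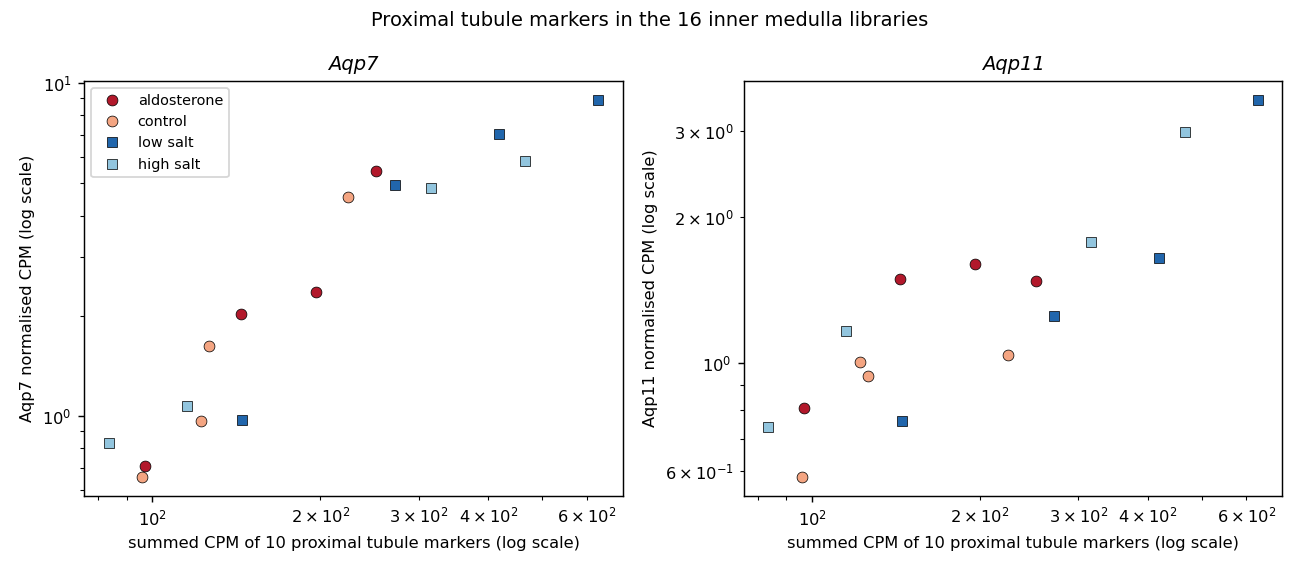
Normalised CPM of Aqp7 (left) and Aqp11 (right) against the summed CPM of 10 proximal tubule markers in the 16 inner medulla libraries, both axes on a log scale; circles are the aldosterone experiment and squares the low-salt experiment. Libraries with more proximal tubule RNA have more Aqp7 in every group, up to 8.89 CPM at a marker sum of 630 CPM.

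The collecting duct channels followed collecting duct markers less closely. The r was 0.758 for Aqp3 (rho 0.729, permutation p = 0.0036, adjusted p = 0.016) and 0.703 for Aqp4 (rho 0.676, permutation p = 0.0059, adjusted p = 0.019). Without the 2 farthest libraries it was 0.755 for Aqp3 and 0.625 for Aqp4. Aqp2 gave r = 0.451 (rho 0.191, permutation p = 0.13), Avpr2 gave 0.467 (rho 0.341, permutation p = 0.13) and Slc14a2 gave -0.149 (rho -0.235, permutation p = 0.61), and none of these 3 passed over both tables. The tables differed: the r was 0.836 in the aldosterone table and -0.070 in the low-salt table for Aqp2, 0.454 and -0.669 for Slc14a2, and 0.581 and 0.331 for Avpr2. These values for 1 table rest on 8 libraries and carry no test.

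Aqp1 followed thin limb markers (r = 0.680, rho 0.706, permutation p = 0.011, adjusted p = 0.029), with 0.543 without the 2 farthest libraries, and not proximal tubule markers (r = -0.177, rho -0.121, permutation p = 0.54). Slc14a1 followed endothelial markers (r = 0.547, rho 0.762, permutation p = 0.023, adjusted p = 0.043), at 0.663 without the 2 farthest libraries. Avpr2 ran against thick ascending limb markers (r = -0.655, rho -0.694, permutation p = 0.014, adjusted p = 0.030), at -0.697 without them. Slc14a2 with thin limb markers did not pass over both tables (r = 0.522, rho 0.518, permutation p = 0.10), with an r of -0.465 in the aldosterone table and 0.871 in the low-salt table, where Slc14a2 was called and the marker sums did not overlap between the diets. Avpr1a with intercalated cell markers did not pass (r = 0.134, rho 0.159, permutation p = 0.57). Levels within a library share its depth and dissection.

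By likeness of pattern over the 16 kidney libraries, among 13322 genes and after removal of each table's mean, Aqp2 lay closest to Ism2 (r = 0.915), Exoc1 (0.859) and R3hdm4 (0.854). Slc14a2 lay closest to Cyb561d1 (0.903), Rtn4 (0.893) and Dmpk (0.891), and Avpr2 to Kifap3 (0.896), Pard3b (0.895) and Elmo2 (0.874). These values describe the ranking and carry no test.

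The kidney and heart levels of the 10 genes were far apart. On high salt all 10 differed between inner medulla and ventricle (edgeR, adjusted p under the threshold in 77.8% of 18175 genes), with no overlap between the 4 libraries of each tissue, as for 82.1% of genes. In 9 the kidney was higher, a direction called in 41.1% of genes, and for Aqp7 it was lower, called in 36.7%. Aqp7 averaged 3.14 ± 2.56 CPM in kidney and 115 ± 28.6 CPM in heart (SD, n = 4 each; log2 -6.09 ± 0.62, adjusted p = 1.31e-05, edgeR). Aqp1, which endothelium also carries, averaged 1357 ± 251 CPM in kidney and 340 ± 42.5 CPM in heart, with a log2 fold change of 1.08 ± 0.15 (adjusted p = 0.000112, edgeR). On this scale the median of all genes was 0.13, and 0.31 with upper quartile scaling, so the Aqp1 difference is read relative to that shift.

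The CPM levels of kidney and heart come from tables scaled separately, whereas these fits scale both tissues together, so the log2 changes differ from the ratios of the printed means. The receptors also differed between the tissues. Avpr2 had 330, 358, 424 and 443 CPM in kidney, against 0.0741, 1.09, 0 and 0 CPM in heart on high salt (log2 9.39 ± 0.73, adjusted p = 1.86e-06, edgeR). Avpr1a averaged 11.8 ± 1.82 CPM in kidney and 0.829 ± 0.251 CPM in heart (log2 2.90 ± 0.25, adjusted p = 4.25e-06). The urea transporters stood at log2 10.01 ± 0.72 for Slc14a2 and 7.01 ± 0.45 for Slc14a1 (adjusted p = 1.10e-06 and 4.88e-07), and Aqp11 at 1.51 ± 0.47 (adjusted p = 0.0151).

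The collecting duct channels in heart came to traces that were uneven between libraries. Aqp2 had 6144, 4214, 5716 and 5590 CPM in kidney on low salt and 0.517, 1.29, 0.0298 and 0 CPM in heart on low salt. On high salt the heart libraries had 0.964, 21.0, 0.0332 and 0 CPM. The counts behind them were 13, 35, 1 and 0 on low salt and 26, 656, 1 and 0 on high salt, and a count of 0 allows up to 3 counts in a library. Batch 1 hearts were above batch 2 hearts on both diets, and high salt replicate 2 was the highest. For Aqp3 the heart libraries had 0.914, 0.701, 0.0298 and 0 CPM on low salt and 0.926, 7.67, 0.0332 and 0 CPM on high salt.

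Without heart high salt replicate 2 the kidney excess was larger, at log2 13.41 in place of 9.32 for Aqp2, 11.85 in place of 9.04 for Aqp3, 12.25 in place of 9.64 for Aqp4 and 12.95 in place of 9.39 for Avpr2. It was 11.15 in place of 10.01 for Slc14a2 and 7.83 in place of 7.01 for Slc14a1. Thick ascending limb markers were high in the same library, and their part in the heart values was not tested.

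**Figure D5:**
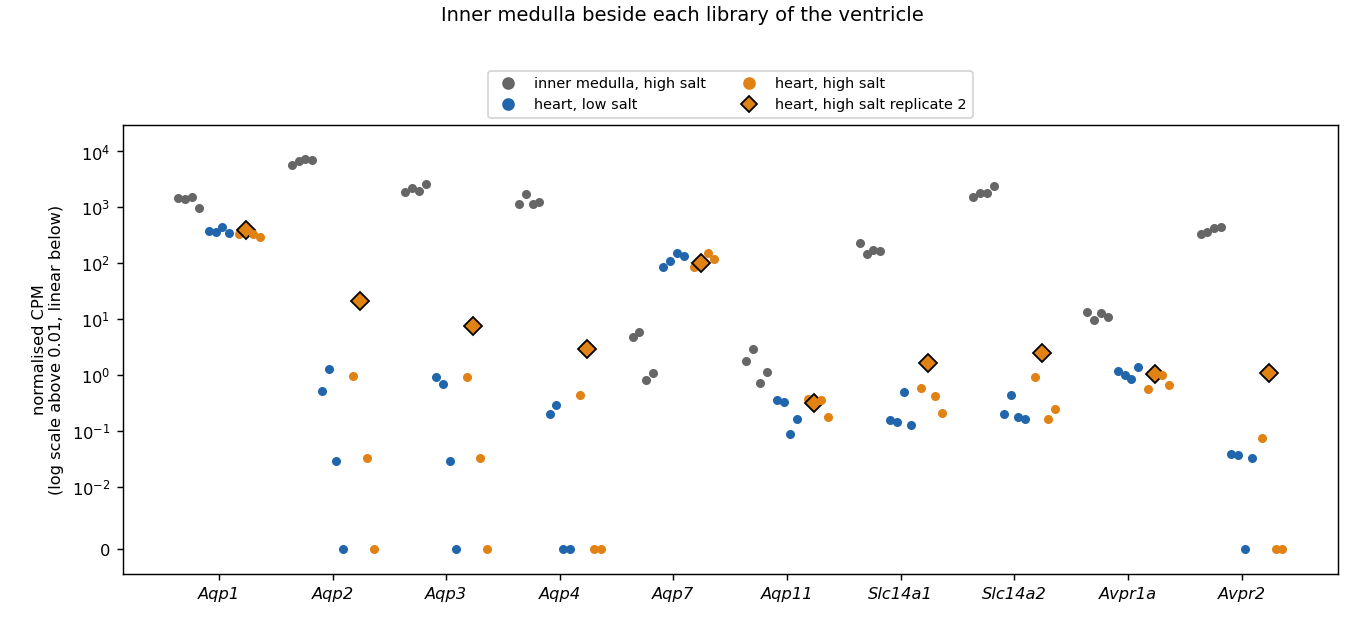
Normalised CPM of each gene in inner medulla on high salt (grey), heart on low salt (blue) and heart on high salt (orange), on an axis that is logarithmic above 0.01 CPM and linear below; each point is 1 library of 4 a group. Heart high salt replicate 2 is drawn as a diamond, and it is the highest heart library for Aqp2 (21.0 CPM), Aqp3, Aqp4, Slc14a1, Slc14a2 and Avpr2.

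Low salt gave no call by edgeR or DESeq2 for the 6 of these genes tested in heart, with 2 (Aqp2 and Aqp3) at an unadjusted p under 0.05. DESeq2 gave no adjusted p for Avpr1a and Slc14a1. Over all genes there, edgeR called 0.0517% of 15473 genes, DESeq2 1.88% and 10.6% had an unadjusted p under 0.05. Aqp7 had 87.5, 112, 156 and 134 CPM on low salt, against 86.8, 99.4, 152 and 120 CPM on high salt (log2 0.09 ± 0.11, adjusted p = 0.791, edgeR). Batch 2 was above batch 1 on both diets. Aqp1 had 379, 370, 453 and 353 CPM on low salt, against 337, 397, 334 and 294 CPM on high salt (log2 0.20 ± 0.11, adjusted p = 0.573, edgeR). Avpr1a averaged 1.12 ± 0.238 CPM on low salt, against 0.829 ± 0.251 CPM on high salt (log2 0.42 ± 0.30, adjusted p = 0.661, edgeR).

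The remaining heart values rested on 1 library or on few counts. Aqp2 gave a log2 fold change of -3.44 (adjusted p = 0.360, edgeR) and Aqp3 one of -2.24 (0.402), and without high salt replicate 2 they were -0.09 and -0.19. Slc14a1 gave -1.38 ± 0.72 (0.547), at -2.83 in batch 1 and -0.01 in batch 2. Aqp4, Aqp11, Slc14a2 and Avpr2 were not tested there because they missed the count filter, with at most 94, 11, 78 and 34 counts in a library. Among 21 cAMP genes none passed in heart, and the smallest p was that of Pde4b, a phosphodiesterase that breaks down cAMP (log2 0.55 ± 0.08, adjusted p = 0.0912, edgeR), which DESeq2 and the fit with no filter called at 1.18e-05 and 0.0106. Pde4d (0.45 ± 0.12, adjusted p = 0.271), Myh9 (-0.28 ± 0.06, adjusted p = 0.226), Myl9 (-0.34 ± 0.13, adjusted p = 0.393), Lnpep (-0.14 ± 0.09, adjusted p = 0.609), Gata2 (-0.16 ± 0.12, adjusted p = 0.681), Gata3 (-0.27 ± 0.21, adjusted p = 0.682) and Aqp6 (0.27 ± 0.65, adjusted p = 0.910) did not pass.

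The low-salt response of kidney minus that of heart did not differ past the threshold for any of the 10 genes in edgeR, which called 0.83% of 19408 genes. At an unadjusted p under 0.05 there were 6 of the 10 genes and 14.4% of all genes, and DESeq2 called 1 gene (Aqp4) and 4.3% of all. Without heart high salt replicate 2 there were 2 of the 10 genes, and the median log2 difference of the 10 was 0.20 in place of 0.97. Of 19804 genes in that fit, 1116 higher and 1401 lower had an unadjusted p under 0.05. The median over all genes was -0.0055 in place of 0.022. The Aqp4 difference was then 1.15 (adjusted p = 0.510, edgeR interaction). For Slc14a2 the difference was 0.99 ± 0.50 (adjusted p = 0.401, edgeR interaction) and 0.21 without heart high salt replicate 2, the library with 78 counts of it. For Aqp2 it was 3.24 ± 1.03 (adjusted p = 0.165) and -0.20 without that library. In the surrounding lists Nfat5 (0.70 ± 0.11, adjusted p = 0.0172) and the myosin Myh9 (0.56 ± 0.11, adjusted p = 0.0403) differed, and without that library their adjusted p was 0.0529 and 0.0927.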

How the data were processed

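RNA sequencing measured 16 inner medulla and 8 ventricle libraries, each from 1 rat per the labels. Per the labels' protocols, stranded mRNA libraries (TruSeq) were read from 1 end for 50 cycles (NovaSeq X plus). Per the submitters' processing notes the tools were bcl2fastq 2.19, Trimmomatic, Salmon and MultiQC; settings, build and annotation were not given in the sources used here. Unscaled expected counts (estimated counts) of 36856 genes were deposited in 3 tables, and reads shared between near-identical genes or transcripts are split by estimation. Column names gave the sample of all 24 columns, and every symbol had a RefSeq entry.

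Counts were rounded, and each table was fitted alone with edgeR 4.0.16 in R 4.3.3: filterByExpr with a minimum count of 10, TMM scaling, batch as a term, quasi-likelihood test, Benjamini-Hochberg adjustment over all genes tested, threshold 0.05. Responses were compared by an interaction term in 16 libraries, each table and batch having its own intercept. Kidney was compared with heart on high salt without a batch term, because the batches are numbered within a tissue. Levels are CPM at TMM-scaled library sizes with the SD over 4 rats, and errors of log2 changes are standard errors. All 10 genes passed the filter in both kidney tables. The tests were checked on simulated counts. Replicate libraries all differed by more than sampling noise (chi-square per gene of 20.3 to 104 over 36 pairs). The floor of 3 counts given for a count of 0 covers counting error only.

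The genes and the 18 gene lists were chosen with earlier results of these data known. Named are all 10 genes, up to 4 called genes per list, and, where none passed, the 2 with the smallest p, the last part being used for the pathway lists only. The labels do not tie kidney and heart to the same rats. Deviations from the group means correlated above 0.1 for every replicate number in heart (0.16 to 0.23), but no heart library correlated best with its own number. The numbers are therefore not shown to pair heart libraries. The heart tests used the batch term, with the replicate block as an alternative only. Alternatives were DESeq2 1.42.0, DESeq2 size factors, upper quartile scaling, no filter, a stricter filter (1 CPM or more in 4 libraries), omission of batch, a replicate block, each batch alone and each library left out. RefSeq promoters (GRCr8) were matched by symbol for 9 of the 10 genes; Aqp7 is not shown. Levels are not compared between genes, since transcript lengths were not used.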

Additional observations from a re-analysis of the deposited data

Results flagged for a closer look

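In groups of 4 libraries, 1 value was set apart when its gap to the nearest other value exceeded 0.829 of the group's range. Of 60 groups of the 10 genes, 8 had such a library, and chance gives about 1 in 20. Heart high salt replicate 2 gave 4 of them, with Aqp2 at 20.95 CPM, Aqp3 at 7.67 CPM, Aqp4 at 3.002 CPM and Avpr2 at 1.09 CPM. In kidney, Aqp4 stood at 1754 CPM in high salt replicate 2, above the others, and Aqp11 at 0.808 CPM in aldosterone replicate 3, below them. In heart on low salt, Slc14a1 stood at 0.507 CPM in replicate 3 and Slc14a2 at 0.443 CPM in replicate 2.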

How the results depend on the processing

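Of the 10 genes, 0 were called with aldosterone by edgeR and 1 by DESeq2 (Slc14a2). On low salt in kidney 1 was called, and 2 by DESeq2 (Slc14a2 and Slc14a1), 0 without the batch term, 0 in batch 1 alone, 1 in batch 2 alone (Aqp7, not Slc14a2) and 0 to 1 when a library was left out. Over all genes there, edgeR called 454 of 18449, DESeq2 1695 and the fit without the batch term 165. Batch 1 alone called 0 of 18903 genes, and batch 2 alone 240 of 18545. When a library was left out, 2 to 423 genes were called. For kidney minus heart 0 were called, and 1 by DESeq2 (Aqp4, adjusted p = 0.0344). The replicate block moved none of these calls of the 10 genes (Slc14a2 on low salt, log2 -0.81, adjusted p = 0.0456), while the 7 called list genes of that comparison lost theirs. That block called 52 of 18449 genes on low salt in kidney. Without the batch term Grhl2 (adjusted p = 0.0524), Tmem45b (0.0578), Slc4a11 (0.0998) and Emcn (0.0737) lost theirs too. Between kidney and heart, DESeq2 gave no adjusted p for Aqp2, Aqp3 and Aqp4 and called the 7 others. In kidney the numbers do not pair the libraries, with correlations of -0.04 to 0.38 for aldosterone and -0.04 to 0.29 for low salt, where 2 of 4 and 1 of 4 numbers were best with their own. Signs turned, none past the threshold, for these log2 changes. With aldosterone these were Aqp1 (0.15 in batch 2), Aqp4 (-0.037 in batch 1), Aqp7 (-1.02 in batch 2), Slc14a1 (0.0070 with upper quartile scaling, 0.0020 with no filter, 0.036 in batch 2), Aqp6 (-0.10 in batch 1) and Oxtr (0.45 in batch 1). On low salt in kidney they were Aqp7 (-0.11 in batch 1), Aqp11 (-0.17 in batch 1), Aqp6 (-0.050 in batch 2) and Oxtr (-0.11 in batch 2), and in heart Aqp6 (-0.43 in batch 1) and Lnpep (0.020 in batch 1). For kidney minus heart Aqp2 was -0.20 without heart high salt replicate 2, an alternative chosen after seeing the data. When 1 library was left out the changes ran from -0.34 to 0.061 (Aqp1), -0.11 to 0.15 (Aqp4), -0.072 to 1.22 (Aqp7) and -0.086 to 0.064 (Slc14a1) with aldosterone, from -0.22 to 0.58 (Aqp11) and -0.023 to 0.34 (Oxtr) in kidney on low salt, and -0.061 to 1.38 (Aqp6) in heart. The causes were not tested. With 2 libraries a group, fits of 1 batch have few degrees of freedom, and below about 1 CPM counting error limits the values.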
